A study of Saccharomyces cerevisiae with 25 samples.

Results

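Yeast cells detoxify superoxide and peroxides with a set of enzymes and the thiol systems that recharge them, and 35 genes of that set were followed among the 6648 gene names of the deposited table. They were chosen by name: catalases and superoxide defence (6 genes), peroxiredoxins and glutathione peroxidases (8), the thioredoxin system with the methionine sulfoxide reductases (7), the glutathione system (10), and regulators with the old yellow enzymes (4). The rule picks genes by name and function and sets no threshold on a measured value. RNA of budding yeast (Saccharomyces cerevisiae) was sequenced in 25 samples during 6 hours after a move to medium without phosphate. The tested samples are 24 libraries in no-phosphate medium, 1 every 15 min from 15 to 360 min, and the single 0 min library comes from cells in high-phosphate medium. Every sample, the 0 min one included, carried the same alleles in the BY4741 background, a laboratory haploid: a reporter of yellow fluorescence driven by the PHO84 promoter (pho84pr-YFP) and phm3 damp. PHM3 was an earlier symbol for VTC4, which encodes the subunit that makes polyphosphate at the vacuole, and a damp allele alters the tail of the transcript, usually leaving less of it. No strain without these alleles was analysed here, so nothing below separates the allele from the medium.

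Superoxide dismutases convert superoxide into hydrogen peroxide, which catalases and peroxidases then break down. Peroxiredoxins and methionine sulfoxide reductases are recharged by thioredoxin, glutathione peroxidases and glutaredoxins draw on thioredoxin or glutathione, and NADPH finally reduces both systems through their reductases. In yeast, most of these enzymes exist as a cytosolic and a mitochondrial form or as a pair of paralogs. Many of their genes are known targets of the oxidant-sensing factor Yap1, of Skn7 or of the general stress factors Msn2 and Msn4.

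The data are log2 RPM, the log2 of reads per 1000000 reads of a library, so each level is a share of the library and a change in RNA per cell cannot be told apart from a change in the mix of cells. Recovered depth was 4.275 M reads (M, 1000000) at 0 min, 0.748 to 2.971 M over the 6 libraries of 15 to 90 min and 0.147 to 0.781 M over those of 285 to 360 min. The table lists a gene from 10 reads upwards. A set of 5 libraries stood apart from the rest: at 75, 120, 255, 345 and 360 min ADA2, a subunit of a transcription coactivator complex, had 7.83 to 8.92 log2 RPM, against 10.46 to 12.02 in the other 20. In those 5 libraries CCP1, OYE2, MXR2, TRX3 and GRX2 always lay below the nearest libraries of higher ADA2, and SOD1, CCS1, TSA1, AHP1, HYR1, TRX2, GRX1, GSH2 and GTT1 always above them. That reference is the mean of both adjacent time points at 75, 120 and 255 min, and the 330 min library alone at 345 and 360 min. The calls of each comparison are also given without these 5 libraries. VTC4 itself stood at 6.40 log2 RPM at 0 min and had a lowest, median and highest value of 6.35, 6.90 and 7.36 at 15 to 90 min and of 7.51, 7.89 and 10.36 at 285 to 360 min. Whether the allele lowers it cannot be checked without another strain. MFA1, MFA2, STE2 and BAR1, genes of mating type a cells, had a value in all 25 libraries, as the BY4741 label implies. STE3, the receptor gene of the other mating type, was low, with a median of 4.79 log2 RPM at 15 to 90 min. It still had a value in 23 libraries, so having a value separates the mating types only weakly. MFALPHA1 and MFALPHA2, further genes of that other type, were not found under those names.

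A total of 30 of the 35 genes had a value in all 25 libraries, GRX4 and MXR1 in 24, OYE3 in 20 and SKN7 in 16. CTA1, the peroxisomal catalase, had a value only at 60 min, with 13 reads. For tests the 24 no-phosphate libraries were divided into 4 windows of 6 consecutive time points. Tests were limited to genes measured at 0 min and in 4 or more of the 6 libraries of every window, which left 4742 genes and 32 of the 35, all but CTA1, SKN7 and OYE3. A gene was called at a limma adjusted p under 0.05 over all 4742 genes together with an absolute log2 difference of at least 1. Nothing says that the samples came from separate cultures, so each p measures scatter between consecutive samples, real change within a window included. The median gene did not stay at 0: it was 0.36 higher on the log2 scale at 285 to 360 min than at 15 to 90 min, 0.47 higher at 285 to 360 min than at 0 min and 0.10 higher at 15 to 90 min than at 0 min. "Relative" below marks a difference from which that median was subtracted.

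Promoter stretches of CTT1, SOD2, TSA2, TRX2, GRX1, GRX2 and GTT1 are shown as examples. All of these genes were called in at least 1 comparison below, and TRX2 is also a classic Yap1 target. Among them the stretches hold the letters of the stress element bound by Msn2 and Msn4 (AGGGG, or CCCCT on the other strand), of the Yap1 element (TTACTAA or TTAGTAA), of its variant (TGACTAA or TTAGTCA) and of the core of the Pho4 site (CACGTG). Pho4 is the transcription factor of phosphate starvation. Capitals mark these letters, each stretch is written in the direction of its gene, and the sequences are those of the RefSeq genome of build R64. The stretches lie at VII:654234-654303 (plus strand) for CTT1, VIII:123721-123900 (minus) for SOD2, IV:1365913-1365992 (minus) for TSA2 and VII:913393-913462 (minus) for TRX2. Those of the glutathione genes lie at III:61324-61373 (minus) for GRX1, IV:1470857-1470916 (plus) for GRX2 and IX:424614-424768 (minus) for GTT1.
CTT1: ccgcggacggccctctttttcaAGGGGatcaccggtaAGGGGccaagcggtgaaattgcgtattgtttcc
SOD2: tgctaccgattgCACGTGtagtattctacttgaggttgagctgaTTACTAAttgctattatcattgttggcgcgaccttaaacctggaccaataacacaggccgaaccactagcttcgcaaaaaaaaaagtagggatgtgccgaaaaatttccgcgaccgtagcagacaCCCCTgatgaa
TSA2: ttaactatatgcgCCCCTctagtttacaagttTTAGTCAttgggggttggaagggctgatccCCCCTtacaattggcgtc
TRX2: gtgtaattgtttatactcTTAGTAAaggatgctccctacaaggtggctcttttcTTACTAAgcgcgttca
GRX1: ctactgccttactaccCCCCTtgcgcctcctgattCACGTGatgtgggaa
GRX2: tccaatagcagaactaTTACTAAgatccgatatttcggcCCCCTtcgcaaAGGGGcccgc
GTT1: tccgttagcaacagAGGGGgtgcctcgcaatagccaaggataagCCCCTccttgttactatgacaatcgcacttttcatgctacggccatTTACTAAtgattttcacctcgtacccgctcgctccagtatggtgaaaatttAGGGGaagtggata

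In the 500 bases before the start codon, 17 of the 35 genes held at least 1 stress element, against 34.1% of 6006 genes of the genome, and 8 of the 35 held at least 2, against 8.18%. The Yap1 element stood before 16 of the 35, against 11.8% of genes. GPX2, TRX2 and OYE3 held it at 2 or more places, which 0.949% of genes did. TSA2, GPX1, TRR1 and GSH1 held the variant, found before 5.98% of genes, and SOD2, GRX1 and GSH1 held CACGTG, found before 6.23%. No match of one motif overlapped a match of another in these windows. CTT1 held 3 stress elements, whose first letters lie 378, 363 and 133 bases before its start codon, and no Yap1 element. GTT1 held 3 stress elements and 1 Yap1 element, GRX1 1 stress element and 1 CACGTG, and TRX2 1 stress element beside its pair of Yap1 elements. A match of letters is a description of the sequence and no evidence of binding.

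Together the 35 genes took 1.42% of all reads at 0 min, 1.58 to 2.16% at 15 to 90 min (median 1.99%), 1.46 to 2.52% at 105 to 180 min (median 1.79%), 2.35 to 2.94% at 195 to 270 min (median 2.38%) and 2.21 to 3.35% at 285 to 360 min (median 2.38%). AHP1, SOD1 and TSA1 made up 51.3 to 62.1% of those reads in every library. Per kilobase of coding length, AHP1 led at 0 min with 13.19 log2 RPM per kb, followed by SOD1 (12.08), TRX1 (11.23), TRX2 (11.14), TSA1 (11.02) and GRX1 (10.02). At 285 to 360 min the order of the mean levels per kilobase was AHP1 (14.02 ± 0.29, SD, n = 6), SOD1 (12.61 ± 0.32), GRX1 (12.38 ± 0.23), TRX2 (12.16 ± 0.33), TSA1 (11.61 ± 0.43), HYR1 (11.31 ± 0.10) and TRX1 (10.80 ± 0.07). Neighbours among SOD1, GRX1 and TRX2 lay within 1 SD of each other in that late order. CTT1, near the bottom at 0 min with 2.76 log2 RPM per kb, reached 7.01 ± 0.67 at 285 to 360 min.

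At 285 to 360 min against 15 to 90 min, 10 of the 32 tested genes were called higher and 0 lower, where 12.9% of all tested genes were called higher and 3.4% lower. The 10 were CTT1, SOD2, TSA2, PRX1, GPX1, HYR1, TRX3, TRR2, GRX1 and GTT1, and the median difference of the 32 was 0.38, beside 0.36 over all tested genes. Only 17 of the 32 lay above the median of all genes, while the 10 called genes were 1.01 to 2.79 log2 units higher. The 6 late libraries lay wholly above the 6 early ones for 10 of 30 genes with a value in all 12, where 26.5% of genes did so: CTT1, SOD2, TSA2, PRX1, HYR1, TRX3, TRR2, GRX1, GRX2 and GTT1. TRX1 alone lay wholly below, as did 6.36% of genes. The plot of late minus early differences gives these values for each tested gene.

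**Figure D1:**
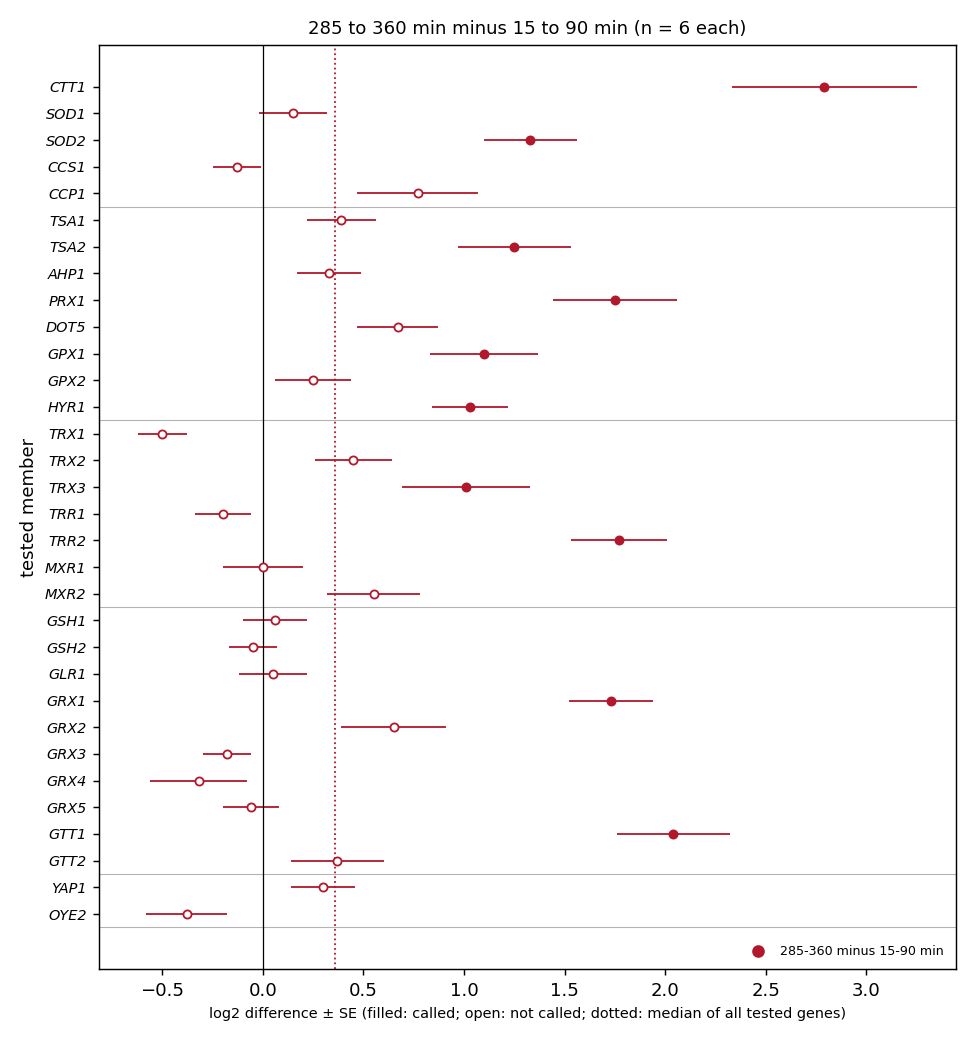
Log2 difference (x axis) between the mean of the 6 libraries from 285 to 360 min and the mean of the 6 from 15 to 90 min for each of the 32 tested genes, with bars of 1 SE from limma. Filled points are called, open ones are not, and the dotted line is the median of all 4742 tested genes (0.36). CTT1 lies farthest right at 2.79, and TRX1 farthest left at -0.50.

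Among catalases and superoxide defence, 2 of the 5 tested genes rose late, CTT1 and SOD2, where 12.9% of all tested genes did. CTT1 (VII:654634-656322, plus strand, a single coding exon) encodes cytosolic catalase T. It stood at 3.52 log2 RPM at 0 min. In the 4 windows of 6 libraries its lowest, median and highest values were 4.33, 4.98 and 5.60 at 15 to 90 min, 3.63, 4.91 and 6.95 at 105 to 180 min, 6.71, 7.18 and 7.29 at 195 to 270 min, and 6.88, 7.71 and 8.96 at 285 to 360 min. Every library from 195 min on lay above every library before 150 min, and the window from 105 to 180 min spans the change. CTT1 was 2.79 ± 0.46 (SE) log2 units higher at 285 to 360 min than at 15 to 90 min (limma adjusted p = 2.85e-05; relative 2.43). This was the 24th largest absolute difference of all tested genes. CTT1 counts were small, at 29 to 259 reads per library late and 15 to 144 early.

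SOD2, the manganese superoxide dismutase of mitochondria (VIII:122889-123590, minus strand), had lowest, median and highest values of 8.74, 8.94 and 9.64 log2 RPM at 285 to 360 min and of 7.08, 7.92 and 8.04 at 15 to 90 min, with 7.41 at 0 min. Its late and early libraries did not overlap, and the late maximum came from 345 min. It was 1.33 ± 0.23 higher late than early (limma adjusted p = 5.67e-05; relative 0.97). SOD1, the abundant cytosolic copper-zinc enzyme, had values of 11.18, 11.39 and 12.08 late and of 10.90, 11.41 and 11.63 early, with 10.97 at 0 min. Its late and early libraries overlapped, with a difference of 0.15 ± 0.17 (limma adjusted p = 0.487). CCS1, the copper chaperone that loads Sod1, differed by -0.13 ± 0.12 (limma adjusted p = 0.382). CCP1, cytochrome c peroxidase of the mitochondrial intermembrane space, had values of 7.55, 8.55 and 8.88 late and of 6.50, 7.88 and 7.97 early, with 7.54 at 0 min. It was 0.77 ± 0.30 higher, past the p threshold (limma adjusted p = 0.0361) and below the fold threshold. Its lowest value in each of the 4 windows came from a library of low ADA2, and without those 5 libraries the difference was 0.76 ± 0.13 (limma adjusted p = 8.8e-05).

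Of the 8 peroxiredoxins and glutathione peroxidases, 4 rose late, where 12.9% of all tested genes did: TSA2, PRX1, GPX1 and HYR1. PRX1, the mitochondrial peroxiredoxin (II:100371-101156, minus strand), stood at 6.03 log2 RPM at 0 min. Its lowest, median and highest values were 6.56, 6.87 and 7.45 at 15 to 90 min, 6.35, 6.92 and 8.47 at 105 to 180 min, 8.32, 8.59 and 9.14 at 195 to 270 min, and 7.91, 8.57 and 9.62 at 285 to 360 min. From 195 min on, all its libraries lay above all early ones, and the late range is wide because 330 min is low and 345 min high. PRX1 was 1.75 ± 0.31 higher late than early (limma adjusted p = 6.76e-05; relative 1.39).

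TSA2 (IV:1365072-1365662, minus strand), the minor paralog of the cytosolic peroxiredoxin Tsa1, had values of 6.29, 6.42 and 7.16 late and of 4.94, 5.34 and 5.60 early, with 4.52 at 0 min. Its late and early libraries did not overlap, and it was 1.25 ± 0.28 higher (limma adjusted p = 0.000746; relative 0.89). TSA2 counts were small, at 21 to 62 reads per library late and 23 to 144 early. HYR1 (IX:423128-423619, plus strand), the peroxidase that also senses peroxide and oxidises Yap1, had the narrowest late spread of the 10 called genes (SD 0.10). It had values of 10.21, 10.25 and 10.49 late and of 8.84, 9.33 and 9.59 early, with 8.65 at 0 min. These groups did not overlap, and HYR1 was 1.03 ± 0.19 higher (limma adjusted p = 9.53e-05; relative 0.67). GPX1, a glutathione peroxidase (XI:389380-389883, minus strand), had values of 4.68, 6.14 and 6.36 late and of 4.44, 4.72 and 5.14 early, with 3.52 at 0 min. Its low library at 300 min overlapped the early range, and the difference was 1.10 ± 0.27 (limma adjusted p = 0.00193; relative 0.73). GPX1 counts were small, at 12 to 51 reads per library late and 22 to 70 early.

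The other 4 of that family were not called. AHP1, the alkyl hydroperoxide reductase and the highest gene per kilobase of all 35, had values of 12.86, 13.02 and 13.62 late and of 12.39, 12.88 and 13.04 early, with 12.27 at 0 min. These overlapped, with a difference of 0.33 ± 0.16 (limma adjusted p = 0.0881). TSA1, the main cytosolic peroxiredoxin, differed by 0.39 ± 0.17 (limma adjusted p = 0.0578) and GPX2, the other small glutathione peroxidase, by 0.25 ± 0.19 (limma adjusted p = 0.277). DOT5, the nuclear thiol peroxidase, was 0.67 ± 0.20 higher, past the p threshold only (limma adjusted p = 0.0068).

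In the thioredoxin system the mitochondrial forms TRR2 and TRX3 rose and the cytosolic ones were not called. TRR2, the mitochondrial thioredoxin reductase (VIII:325598-326626, plus strand), stood at 4.36 log2 RPM at 0 min. Its lowest, median and highest values were 4.53, 4.70 and 4.87 at 15 to 90 min, 4.39, 4.85 and 5.70 at 105 to 180 min, 5.73, 6.08 and 6.85 at 195 to 270 min, and 5.77, 6.38 and 7.11 at 285 to 360 min. The early libraries were tightly grouped and none of the last 12 reached down to them. TRR2 counts were small, at 11 to 76 reads per library late and 20 to 85 early, with the 11 at 345 min. TRR2 was 1.77 ± 0.24 higher late than early (limma adjusted p = 2.41e-06; relative 1.41). TRX3, the mitochondrial thioredoxin (III:259578-259961, plus strand), had values of 5.94, 6.51 and 6.58 late and of 4.41, 5.55 and 5.72 early, with 5.05 at 0 min. The groups did not overlap, and the difference of 1.01 ± 0.32 was only just past the fold threshold (limma adjusted p = 0.0105; relative 0.65). TRX3 counts were small too, at 14 to 75 reads per library late and 24 to 157 early.

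TRX1 and TRX2, the cytosolic thioredoxins, were both short of a call. TRX1 had lowest, median and highest values of 9.01, 9.16 and 9.19 log2 RPM at 285 to 360 min and of 9.46, 9.50 and 10.05 at 15 to 90 min, with 9.55 at 0 min. All 6 late libraries lay below all 6 early ones, with a difference of -0.50 ± 0.12 that passed the p threshold and not the fold threshold (limma adjusted p = 0.00133; relative -0.87). TRX2 had values of 10.25, 10.38 and 11.11 late and of 9.66, 9.99 and 10.73 early, with 9.48 at 0 min. Its groups overlapped through the high 75 min library, with a difference of 0.45 ± 0.19 (limma adjusted p = 0.0564). TRR1, the cytosolic thioredoxin reductase, differed by -0.20 ± 0.14 (limma adjusted p = 0.244). MXR1 and MXR2 reduce the 2 stereoisomers of oxidised methionine, MXR2 in mitochondria. MXR2 had values of 6.72, 7.30 and 7.57 late and of 6.30, 6.62 and 7.24 early, with 6.03 at 0 min, and differed by 0.55 ± 0.23 (limma adjusted p = 0.0545). MXR1 differed by 0.00 ± 0.20 (limma adjusted p = 0.995), with 1 late library under 10 reads and left out of its fit.

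Of the 10 genes of the glutathione system, 2 rose late, GRX1 and GTT1, where 12.9% of all tested genes did. The median of the 10 was 0.06, beside 0.36 over all tested genes. GRX1 (III:60841-61173, minus strand) encodes a cytosolic glutaredoxin, a small enzyme that reduces mixed disulfides with glutathione. It stood at 8.43 log2 RPM at 0 min. Its lowest, median and highest values were 8.73, 9.08 and 9.38 at 15 to 90 min, 8.71, 9.38 and 10.44 at 105 to 180 min, 10.62, 10.70 and 11.20 at 195 to 270 min, and 10.56, 10.74 and 11.12 at 285 to 360 min. The last 12 libraries lay above all earlier ones, with little spread among themselves. GRX1 was 1.73 ± 0.21 higher late than early, the lowest p among the 32 genes (limma adjusted p = 1.04e-06; relative 1.37).

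GTT1 (IX:423809-424513, minus strand) encodes a glutathione transferase, which joins glutathione to foreign or oxidised molecules. It stood at 5.47 log2 RPM at 0 min. Its lowest, median and highest values were 5.92, 6.64 and 7.23 at 15 to 90 min, 6.12, 6.57 and 8.17 at 105 to 180 min, 8.24, 8.42 and 8.93 at 195 to 270 min, and 8.39, 8.52 and 9.12 at 285 to 360 min. All 12 libraries from 195 min on lay above every earlier one. GTT1 was 2.04 ± 0.28 higher late than early, the largest of the 32 after CTT1 (limma adjusted p = 2.79e-06; relative 1.68). GTT1 and HYR1 are neighbours on chromosome IX, with their coding ends facing each other 189 bases apart.

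GRX2, the paralog of GRX1 (IV:1471017-1471448, plus strand), had values of 8.70, 9.03 and 9.27 log2 RPM late and of 8.11, 8.32 and 8.62 early, with 7.58 at 0 min. The groups did not overlap, and the difference of 0.65 ± 0.26 passed the p threshold only (limma adjusted p = 0.043). GRX2 overlaps EMI1 on the opposite strand, and whether counting used the strand is not given in the sources used here, so its level is uncertain. GTT2, the other glutathione transferase, had values of 6.42, 6.60 and 6.94 late and of 5.44, 6.50 and 6.88 early, with 5.17 at 0 min. These overlapped, with a difference of 0.37 ± 0.23 (limma adjusted p = 0.195).

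The remaining 6 genes of the system were not called. GSH1 and GSH2, the enzymes that make glutathione, differed late by 0.06 ± 0.16 (limma adjusted p = 0.774) and by -0.05 ± 0.12 (limma adjusted p = 0.723). GLR1, glutathione reductase, differed by 0.05 ± 0.17 (limma adjusted p = 0.814). The glutaredoxins of iron signalling and iron-sulfur cluster assembly were GRX3 at -0.18 ± 0.12, GRX4 at -0.32 ± 0.24 and GRX5 at -0.06 ± 0.14, with limma adjusted p = 0.204, 0.274 and 0.717. For all 6 the late and early libraries overlapped, and GRX4 was under 10 reads and left out of the fit in 1 late library.

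The regulators were not called either. YAP1 had lowest, median and highest values of 7.48, 7.60 and 8.08 log2 RPM late and of 6.81, 7.46 and 7.72 early, with 6.90 at 0 min, and differed by 0.30 ± 0.16 (limma adjusted p = 0.125). SKN7 was near the limit of 10 reads, with values in 2 of 6 late libraries (4.01 and 4.16) and in 5 of 6 early ones (3.47 to 4.0), and was not tested. OYE2, an abundant NADPH oxidoreductase of the old yellow enzyme family, had values of 8.93, 9.82 and 10.03 late and of 9.48, 10.03 and 10.16 early, with 9.62 at 0 min. It differed by -0.38 ± 0.20 (limma adjusted p = 0.115), with its lowest late value at 360 min and its lowest early value at 75 min, both libraries of low ADA2. OYE3, its paralog, had values in 3 late libraries (4.03 to 4.75) and in 5 early ones (4.10 to 4.78), with 2.95 at 0 min, and was not tested.

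Without the 5 libraries of low ADA2, 8 of the 10 called genes stayed past both thresholds. Of all 4766 genes tested in that fit, 613 were called, higher and lower together. CTT1 was then 2.50 ± 0.53 higher late than early, GTT1 1.94 ± 0.32, GRX1 1.66 ± 0.23, TRR2 1.64 ± 0.25, PRX1 1.44 ± 0.34, TSA2 1.09 ± 0.29, SOD2 1.06 ± 0.22 and HYR1 1.03 ± 0.22. GPX1 at 0.93 ± 0.30 and TRX3 at 0.87 ± 0.24 then missed the fold threshold. OYE3 passes the filter in that fit, which makes 33 tested genes, and their median difference was 0.23, beside 0.30 over all tested genes. Single libraries also moved differences near the fold threshold below it. TRX3 stood at 0.82 without 75 min and at 0.96 to 0.99 without 90, 300, 315, 330 or 345 min, HYR1 at 0.95 without 15 min, 0.97 without 90 min and 0.99 without 360 min, and GPX1 just under 1 without 345 min. Centring each library on its median left 5 called genes, CTT1, PRX1, TRR2, GRX1 and GTT1.

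**Figure D2:**
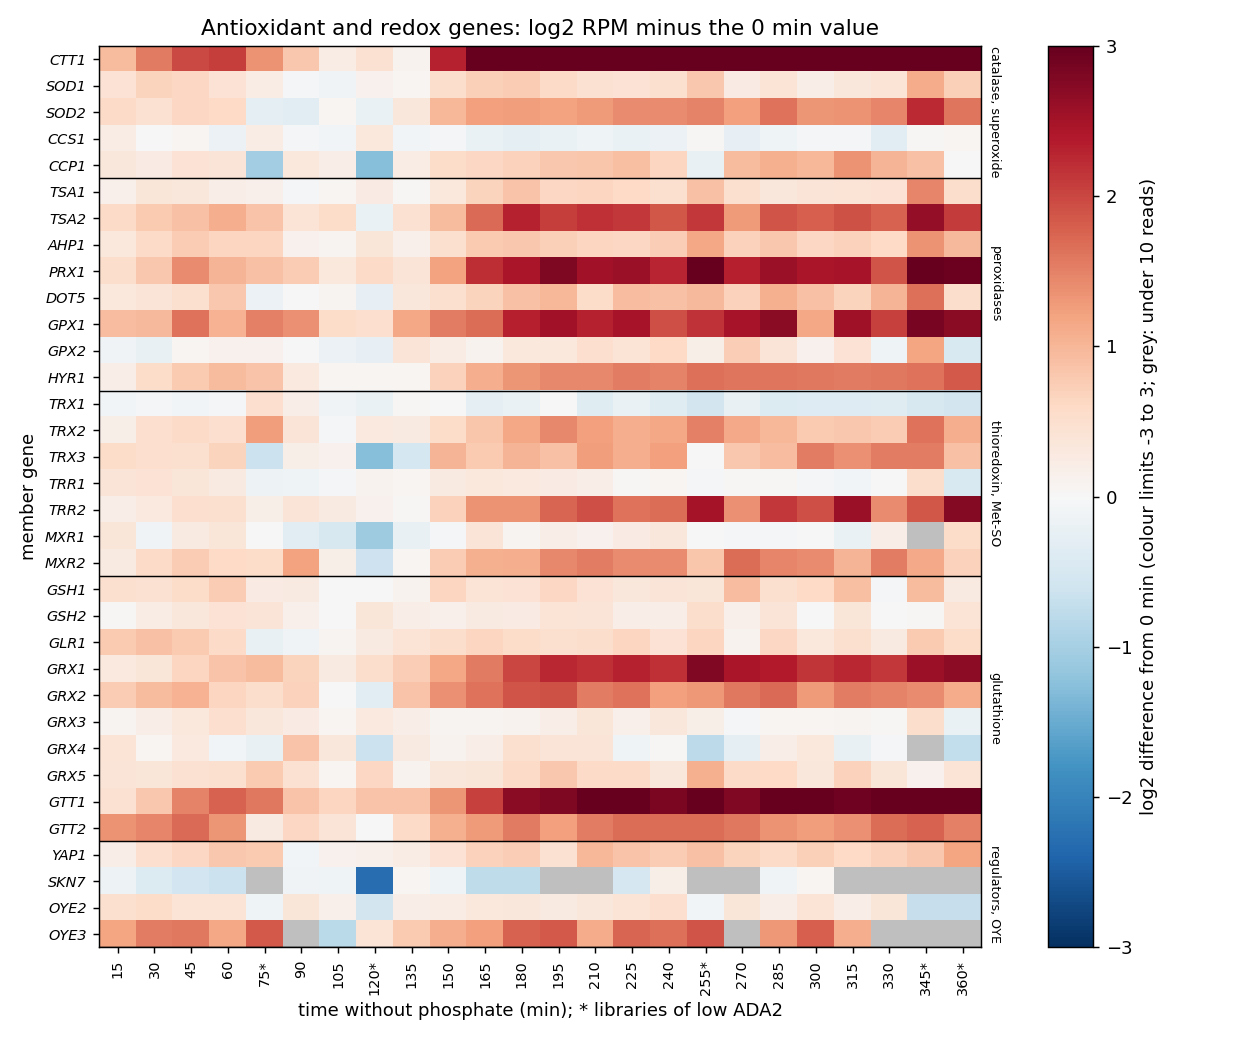
Log2 RPM minus the 0 min value (colour, limited to -3 to 3) of 34 genes (rows, grouped by role) in the 24 no-phosphate libraries (columns, 15 to 360 min). Grey marks fewer than 10 reads, asterisks mark the 5 libraries of low ADA2, and CTA1 is left out because it has no 0 min value. CTT1 turns dark red from 165 min on and GTT1 from 180 min on, while CCS1, TRX1 and GRX3 stay pale.

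Set against the single 0 min library, 13 of the 32 genes were called higher at 285 to 360 min and 0 lower, where 20.1% of all tested genes were called higher and 4.05% lower. The 13 held all of the 10 above except TRX3, together with TRX2, GRX2, GTT2 and MXR2. CTT1 was 4.25 ± 0.86 higher (limma adjusted p = 0.00111), GTT1 3.20 ± 0.52 (limma adjusted p = 0.000176) and PRX1 2.65 ± 0.58 (limma adjusted p = 0.00188). GRX1 followed at 2.36 ± 0.40 (limma adjusted p = 0.000291), GPX1 at 2.34 ± 0.51 (limma adjusted p = 0.00181), TRR2 at 2.11 ± 0.45 (limma adjusted p = 0.00145) and TSA2 at 2.02 ± 0.53 (limma adjusted p = 0.00553). HYR1 (1.63), SOD2 (1.61), GTT2 (1.49), GRX2 (1.42), MXR2 (1.20) and TRX2 (1.02) had limma adjusted p between 0.0017 and 0.0383. Without the 5 libraries of low ADA2, TRX2 missed the fold threshold at 0.85 ± 0.30, the other 12 stayed called, and CCP1 (1.11 ± 0.21) and TRX3 joined them. Dropping 345 min alone left TRX2 uncalled as well, at 0.90 ± 0.34, and MXR2 lost its call without 285 min (limma adjusted p = 0.0513) or 330 min (limma adjusted p = 0.0522). This comparison shares its late libraries with the one above, and any error of the lone 0 min library, assumed to vary like the others, enters each of its values.

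In the first 90 min no gene of the 32 was called against 0 min, in either direction, by limma, and 3 of the 32 had an unadjusted p under 0.05 (GPX1, GTT1 and GTT2). Among all genes tested with the 25 libraries 0.127% were called higher and 0.0211% lower, and 4.43% had an unadjusted p under 0.05. Without the 5 libraries of low ADA2, limma likewise called 0 of 33, with 4 at an unadjusted p under 0.05. In that fit 7.09% of all 4766 tested genes had one. The counts that follow use all 25 libraries again. All 6 libraries from 15 to 90 min lay above the 0 min value in 17 of the 32 genes, among them CTT1, TSA2, PRX1, GPX1, HYR1, TRX2, GRX1, GRX2, GTT1 and GTT2, where 24.6% of all genes with those values did so. The median difference of the 32 was 0.42, beside 0.10 over all tested genes, and all 32 were at or above 0, where 60.8% of genes were above. Since every one of these differences uses the same 0 min library, its error is common to them.

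Within the first 90 min CTT1 had 4.48, 5.09, 5.50, 5.60, 4.87 and 4.33 log2 RPM at intervals of 15 min, with 3.52 at 0 min. GTT1 had 5.92, 6.29, 6.95, 7.23, 7.05 and 6.33 at those times, with 5.47 at 0 min. Both had their highest value at 60 min and lay lower at 90 min, though still above 0 min, and the shape was not tested. Averaged over 30 to 60 min, the differences from 0 min were largest for CTT1 (1.88), GTT2 (1.50), OYE3 (1.43), GTT1 (1.36), GPX1 (1.21) and PRX1 (1.08).

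At 105 to 135 min against 60 to 90 min, no gene of the 32 was called by limma. The difference was below 0 in 27 of the 32 genes, where 60.9% of all tested genes were, and the median difference was -0.31, beside -0.08 over all tested genes. It was above 0 in GLR1 (0.17), SOD2 (0.07), CCS1 (0.05), TRR1 (0.04) and TSA1 (0.01). An unadjusted p under 0.05 was found in 5 of the 32, where 12% of genes had one, and among all tested genes 0% were called higher and 0.148% lower. The 3 libraries from 105 to 135 min lay wholly below those from 60 to 90 min in 6 of the 32 genes, CTT1, PRX1, HYR1, TRX2, GSH1 and MXR2, where 10.8% of genes did so. CTT1 had 3.75, 3.97 and 3.63 log2 RPM at 105, 120 and 135 min, against 5.60, 4.87 and 4.33 at 60, 75 and 90 min, a difference of -1.15 ± 0.36 (limma adjusted p = 0.219). HYR1 had 8.70, 8.72 and 8.71, against 9.59, 9.51 and 8.95, a difference of -0.64 ± 0.19 (limma adjusted p = 0.192). MXR2 had 6.20, 5.42 and 6.08, against 6.63, 6.59 and 7.24, a difference of -0.92 ± 0.25 (limma adjusted p = 0.181). At 0 min CTT1 stood at 3.52 and HYR1 at 8.65. Without the 5 libraries of low ADA2, 0 of 33 tested genes were called and 29 were below 0, where 63.6% of all tested genes were. CTT1 then differed by -1.27 ± 0.42, HYR1 by -0.56 ± 0.23 and MXR2 by -0.80 ± 0.22, with limma adjusted p of 0.484 to 0.575. In that fit 8 of the 33 had an unadjusted p under 0.05 by limma, where 7.97% of all tested genes did. The median difference of the 33 was -0.25, beside -0.09 over all tested genes.

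**Figure D3:**
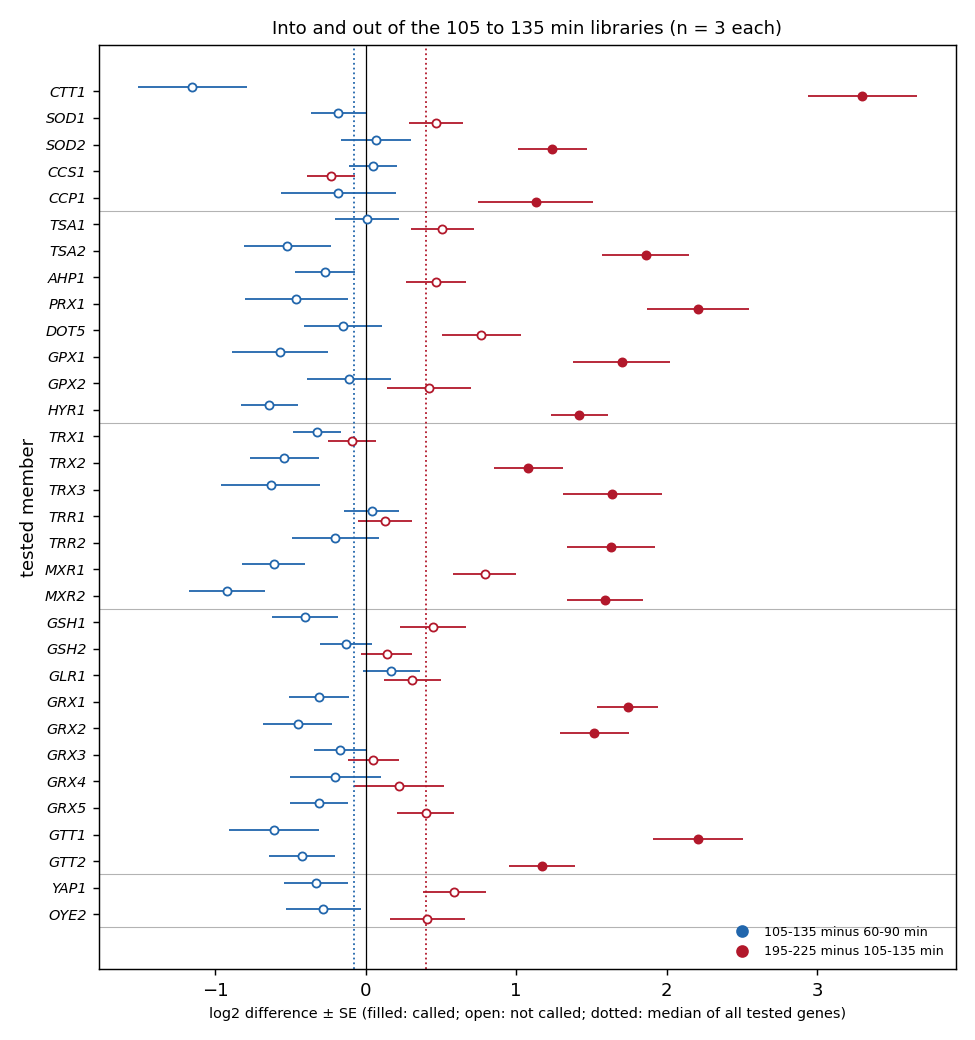
Log2 difference (x axis, bars of 1 SE from limma) for each of the 32 tested genes: 105 to 135 min minus 60 to 90 min in blue and 195 to 225 min minus 105 to 135 min in red, 3 libraries on each side. Filled points are called, open ones are not, and dotted lines are the medians of all tested genes (-0.08 and 0.40). The blue points are all open, and 15 red points are filled, CTT1 farthest right at 3.30.

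At 195 to 225 min against 105 to 135 min, 15 of the 32 genes were called higher and 0 lower, where 14.4% of all tested genes were called higher and 6.54% lower, and the median difference was 0.78, beside 0.40 over all tested genes. CTT1 had 7.23, 6.82 and 7.20 log2 RPM at 195, 210 and 225 min, against the 3 low values above, and was 3.30 ± 0.36 higher (limma adjusted p = 9.08e-07), the 9th largest absolute difference of all tested genes. PRX1 had 8.82, 8.55 and 8.63, against 6.35, 6.60 and 6.41 at 105 to 135 min, and was 2.21 ± 0.34 higher (limma adjusted p = 2.39e-05). GTT1 had 8.28, 8.59 and 8.54, against 6.12, 6.33 and 6.32, and was 2.21 ± 0.30 higher (limma adjusted p = 8.42e-06). In all 3 genes the later libraries lay far above the earlier ones, with no overlap.

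TSA2 was 1.86 ± 0.29 higher (limma adjusted p = 2.94e-05), GRX1 1.74 ± 0.20 (limma adjusted p = 1.8e-06), GPX1 1.70 ± 0.32 (limma adjusted p = 0.000237), TRX3 1.64 ± 0.33 (limma adjusted p = 0.000442) and TRR2 1.63 ± 0.29 (limma adjusted p = 0.000111). MXR2 was 1.59 ± 0.25 higher (limma adjusted p = 3.72e-05), GRX2 1.52 ± 0.23 (limma adjusted p = 1.93e-05), HYR1 1.42 ± 0.19 (limma adjusted p = 6.42e-06) and SOD2 1.24 ± 0.23 (limma adjusted p = 0.000146). GTT2 at 1.17 ± 0.22 (limma adjusted p = 0.00018), CCP1 at 1.13 ± 0.38 (limma adjusted p = 0.0165) and TRX2 at 1.08 ± 0.23 (limma adjusted p = 0.000756) completed the 15. CCP1 had 8.35, 8.37 and 8.44 log2 RPM, against 7.73, 6.26 and 7.76, so its difference leaned on the 120 min library. Without the 5 libraries of low ADA2 it was 0.64 ± 0.15 and no longer called, while the other 14 stayed called and OYE3, tested in that fit, joined them. Limma then called 888 of all 4766 tested genes in that comparison, higher and lower together. TRX2 fell just short of the fold threshold without 105 min (0.97) or 195 min (0.99).

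The later libraries lay wholly above the earlier ones in 25 of 33 genes with all 6 values, where 48.4% of genes did so, and wholly below in 1, CCS1, where 13.3% did. The whole stretch from 165 to 360 min, 14 libraries, lay above all 3 from 105 to 135 min in 17 of 30 genes, where 30.2% did so. Among these were SOD1, TSA1, AHP1, DOT5 and YAP1, none of which was called. YAP1 was 0.59 ± 0.21 higher at 195 to 225 min (limma adjusted p = 0.0238) and SOD1 0.47 ± 0.18 (limma adjusted p = 0.0406), both past the p threshold only. The 105 to 135 min window was picked with earlier results known, and it enters both contrasts around it.

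A smooth curve of time over the 24 no-phosphate libraries, tested with limma's F-test, varied by a fitted range of at least 1 in 15 of the 32 genes, where 39.7% of all tested genes were called. The fitted range was widest in CTT1 (4.26, limma adjusted p = 5.29e-08), GTT1 (2.56, limma adjusted p = 5.07e-08), PRX1 (2.44, limma adjusted p = 4.08e-07), TRR2 (2.14, limma adjusted p = 1.12e-07) and GRX1 (2.02, limma adjusted p = 9.67e-10). TSA2, SOD2, GPX1, TRX3, GRX2, GTT2, HYR1, MXR2, OYE2 and CCP1 had ranges of 1.08 to 1.96. OYE2 fell to a range of 0.29 and CCP1 to 0.92 without the 5 libraries of low ADA2, and neither was then called, the other 13 stayed called and OYE3 was called as well. Single libraries did the same to OYE2 (0.93 without 345 min, 0.80 without 360 min), to CCP1 (0.89 without 75 min, 0.83 without 120 min) and to MXR2 (0.95 without 120 min). In the fit without the 5 libraries of low ADA2, 1391 of all 4766 tested genes were called.

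Within single libraries the balance between isozymes moved, and its changes were not tested. The log2 ratio of SOD2 to SOD1 was -2.50 ± 0.11 at 285 to 360 min and -3.67 ± 0.27 at 15 to 90 min (SD, n = 6 each), with -3.56 at 0 min. Its late range of -2.68 to -2.35 lay above its early range of -4.08 to -3.40. The ratio of TRR2 to TRR1 was -2.36 ± 0.72 late and -4.33 ± 0.26 early, with -4.47 at 0 min, and these ranges did not overlap either. In both pairs the mitochondrial form gained on the cytosolic one, yet remained the lower one in every library.

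TRX2 to TRX1 stood at 1.38 ± 0.38 late and 0.43 ± 0.22 early, with -0.07 at 0 min, so the thioredoxins were level in high phosphate and TRX2 led later on. GRX1 to GRX2 stood at 1.79 ± 0.36 late and 0.71 ± 0.40 early, with 0.85 at 0 min. TSA2 to TSA1 stood at -4.31 ± 0.15 late and -5.17 ± 0.19 early, with -5.74 at 0 min, so TSA2 remained a small fraction of its paralog. GTT2 to GTT1, written with the called gene second, stood at -2.01 ± 0.27 late and -0.34 ± 0.80 early, with -0.30 at 0 min. GTT1 thus gained on GTT2. The early range of this ratio was wide, from -1.60 at 75 min, a library of low ADA2, to 0.59. GRX1 to TRX2, the leading small thiol enzymes of each system, stood at 0.29 ± 0.22 late and -0.99 ± 0.25 early, with no overlap between the windows.

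In the pairs that follow, the late and early ranges overlapped. GPX2 to GPX1 stood at 0.74 ± 0.71 late and 1.59 ± 0.24 early, with 2.82 at 0 min. MXR2 to MXR1 stood at 0.54 ± 0.56 (n = 5) late and -0.02 ± 0.54 early, with -0.58 at 0 min. GRX4 to GRX3 stood at -2.85 ± 0.31 (n = 5) late and -2.80 ± 0.48 early, a difference well inside the SD, with -2.74 at 0 min. GPX1 to HYR1, called members of the same family, stood at -4.43 ± 0.61 late and -4.50 ± 0.34 early, with -5.13 at 0 min. OYE3 to OYE2 stood at -5.55 ± 0.26 (n = 3) late and -5.55 ± 0.51 (n = 5) early, with -6.67 at 0 min. Without the libraries of low ADA2 the ratio of TRX2 to TRX1 was 1.16 late and 0.37 early, that of SOD2 to SOD1 was -2.46 late and -3.59 early, and that of GTT2 to GTT1 was -1.89 late and -0.09 early.

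**Figure D4:**
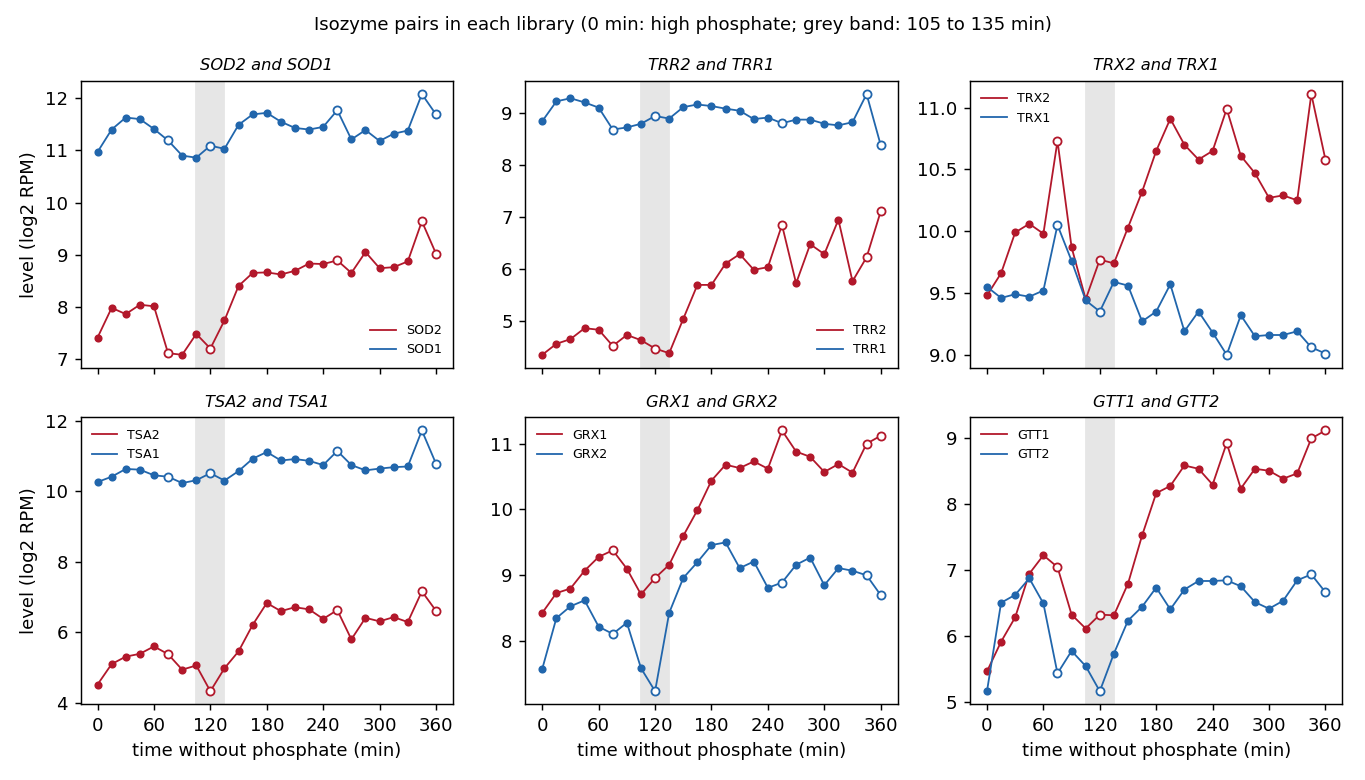
Log2 RPM (y axis) of both genes of 6 isozyme pairs in each library against time without phosphate in min (x axis), with 0 min the high-phosphate library, the grey band 105 to 135 min and open points the 5 libraries of low ADA2. SOD2, TRR2, TSA2, GRX1 and GTT1 climb after the band while SOD1 and TRR1 change less. GTT2 climbs as well, by less than GTT1, and TRX1 drifts down to between 9.01 and 9.19 at 285 to 360 min.

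Stress elements were common before the genes that rose. Of the 10 genes called higher at 285 to 360 min against 15 to 90 min, 9 held a stress element in the 500 bases before the start codon, all but HYR1, where 54.7% of all genes so called held one. Of the 22 tested genes not called, 8 held one, where 31.8% of all such genes did. Among the 15 called at 195 to 225 min against 105 to 135 min, 12 held one, all but HYR1, GTT2 and MXR2, where 62.4% of genes so called did. Of the 17 not called there, 5 held one, where 30.2% of all such genes did. The Yap1 element was found before 3 of the 10 late genes (SOD2, TSA2 and GTT1), where 12.5% of all genes called late held it, and before 10 of the 22 that were not called, where 11.9% did. At 195 to 225 min it stood before 6 of the 15 called genes, where 12.1% of all genes so called held it. Of the 17 not called there, 7 held it, where 11.9% of all such genes did. SOD2 and GRX1 held CACGTG and were called late against early, 2 of the 10, where 9.23% of all genes so called held it. GSH1 held it at 2 places and was not called, 1 of the 22, where 6.17% of all such genes held it. These counts describe letters in a window, and binding of a factor there was not measured.

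Further genes of the pathway were followed as lists. Among 12 tested genes of the oxidant response beside the 35, 2 rose late against early, where 12.9% of all tested genes did: SRX1, the sulfiredoxin that repairs overoxidised peroxiredoxin (1.10 ± 0.28, limma adjusted p = 0.0033), and MCR1, a mitochondrial NADH-cytochrome b5 reductase (1.62 ± 0.32, limma adjusted p = 0.000198). FLR1, a drug exporter driven by Yap1, was 0.90 ± 0.18 higher, past the p threshold only (limma adjusted p = 0.000273). Of the 12, 8 passed the p threshold late against early, 7 of them higher. ATR1 alone passed it lower, at -0.72 ± 0.18 (limma adjusted p = 0.00228). At 195 to 225 min against 105 to 135 min, 4 of the 12 rose, where 14.4% of all tested genes did: SRX1, FLR1, MCR1 and ZTA1, the NADPH-quinone reductase. ZTA1 was also the 1 gene of these lists called lower at 105 to 135 min against 60 to 90 min, with a difference of -1.08 ± 0.19 (limma adjusted p = 0.0324). Without the 5 libraries of low ADA2, ZTA1 stood at -0.96 ± 0.22 (limma adjusted p = 0.358), and limma then called 0 of 4766 genes in that comparison, with 380 at an unadjusted p under 0.05.

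Of 12 other tested glutathione and thiol genes, 4 rose late against early and 0 fell, where 12.9% and 3.4% of all tested genes did. ECM4 and GTO1, glutathione transferases of the omega class, were 1.07 ± 0.29 higher (limma adjusted p = 0.0034) and 1.03 ± 0.21 higher (limma adjusted p = 0.000376). ECM38, the transpeptidase that degrades glutathione, was 1.09 ± 0.28 higher (limma adjusted p = 0.00247), and GLO4, the mitochondrial glyoxalase II, 1.90 ± 0.41 higher (limma adjusted p = 0.000526). The median of the 12 was 0.33, beside 0.36 over all tested genes.

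Among 11 genes of NADPH supply, 3 rose and 1 fell late against early, where 12.9% and 3.4% of all tested genes did, and the median was 0.12, beside 0.36 over all tested genes. GND2, the minor 6-phosphogluconate dehydrogenase, had lowest, median and highest values of 8.46, 8.65 and 9.59 log2 RPM at 285 to 360 min and of 4.65, 5.14 and 5.47 at 15 to 90 min. It was 3.76 ± 0.38 higher (limma adjusted p = 6.88e-08), more than any of the 35 genes. Its major paralog GND1 had values of 7.21, 7.83 and 8.17 late and of 8.40, 8.91 and 9.17 early, and fell by 1.07 ± 0.16 (limma adjusted p = 8.48e-06). SOL4, a 6-phosphogluconolactonase-like enzyme, was 2.0 ± 0.45 higher (limma adjusted p = 0.000707) and IDP2, cytosolic isocitrate dehydrogenase, 1.45 ± 0.26 (limma adjusted p = 1e-04). ZWF1, the entry enzyme of the pentose phosphate pathway, differed by -0.12 ± 0.23 (limma adjusted p = 0.686).

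Of 6 tested genes of copper handling 1 rose late, where 12.9% of all tested genes did: CRS5, a metallothionein, by 1.46 ± 0.23 (limma adjusted p = 1.65e-05). The metallothionein copies CUP1-1 and CUP1-2 share reads, carry the same values and differed by -0.31 ± 0.13 (limma adjusted p = 0.0471). Of 4 tested genes of general stress regulation, 2 rose late, where 12.9% of all tested genes did: MSN4, a transcription factor of the stress element, by 1.88 ± 0.37 (limma adjusted p = 0.000219), and RIM15, a kinase of starvation entry, by 1.03 ± 0.27 (limma adjusted p = 0.00322).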

How the data were processed

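RNA was sequenced from 25 samples, 24 in no-phosphate medium and 1 at 0 min in high phosphate. Per the submitters' processing notes, Bowtie and build R64 were used. The counter, the annotation and the use of strand are not given in the sources used here. A single table of log2 values is what the authors deposited. With the log2 undone, every column adds up to 1000000, so the values were used as log2 RPM, although the design text speaks of values set against the first time point. The lowest value of each column equals 10 reads, and in each library 92.1 to 95.3% of values were whole numbers of reads to within 0.02. Depth had a median of 1.12 M reads (M, 1000000), and 3 libraries held under 0.5 M. Of 6701 rows, 51 unnamed ones (0% of the reads) and 2 sharing a name were left out, which left 6648 names.

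Windows of 6 or of 3 consecutive libraries and the 0 min library were fitted as group means with limma 3.58.1 in R 4.3.3 to the log2 values of all 25 libraries. The spline test used a natural cubic spline with 4 df over the libraries without phosphate. P-values were Benjamini-Hochberg adjusted over 4742 genes, and 0.05 with an absolute log2 difference of 1 made a call. Residual degrees of freedom were 20 for windows of 6 and 16 for windows of 3, and the median residual SD was 0.329 for windows of 6. The fits were tested on simulated data. Motifs were searched on both strands in 500 bases before the start codon of 6006 genes of the RefSeq R64 annotation, which also gave coordinates and coding lengths. The genes were picked by name and function, and they, the lists, windows and pairs were chosen with earlier results of these data known. All 35 genes are accounted for, with window values for those called in any test and for the highest one per kilobase of each role, and counts for the lists of other pathway genes. The alternatives were other scalings, filters, thresholds, voom weights, and leaving libraries out.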

Additional observations from a re-analysis of the deposited data

Results flagged for a closer look

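Within windows of 4 to 6 libraries, 20 single values of the 35 genes lay far from the others: the gap to the nearest library, divided by the whole range of the window, was above Dixon's 95% critical value. A total of 133 windows were examined, and chance gives about 1 in 20. Of the 20 values, 18 came from the 5 libraries of low ADA2 (75, 120, 255, 345 and 360 min). The part of those libraries in each value was not tested.

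CCP1 was lowest in such a library in every window: 6.50 log2 RPM at 75 min (next lowest 7.78), 6.26 at 120 min (7.73), 7.31 at 255 min (8.19) and 7.55 at 360 min (8.41). OYE2 was lowest at 75 min with 9.48 (9.99) and at 120 min with 9.06 (9.78). GRX4 was low at 120 min with 4.61 (5.37), SKN7 at 120 min with 1.82 (3.34), TRX3 at 255 min with 5.05 (5.87) and MXR2 at 255 min with 6.87 (7.44).

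At 345 min, the shallowest library, SOD2 was highest with 9.64 (next highest 9.05), TSA1 with 11.72 (10.78) and TSA2 with 7.16 (6.61). TRX2 at 75 min had 10.73 (10.06), GRX5 at 75 min 8.12 (7.80), CCS1 at 120 min 8.55 (8.17), AHP1 at 255 min 13.44 (13.00) and HYR1 at 360 min 10.49 (10.27), each the highest of its window. Outside those 5 libraries, TSA2 was low at 270 min with 5.80 (next lowest 6.38) and GTT2 at 195 min with 6.41 (6.71).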

How the results depend on the processing

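No paired analysis was possible because the samples carry no replicate numbers that pair one window with another. No call of the 35 genes changed its direction under any alternative tried. CTT1, PRX1, GRX1 and GTT1 stayed called late against early in 35 of 35 settings, TRX3 lost its call in 12, GPX1 in 5 and HYR1 in 5, and the causes were not tested. Late against early, the 10 genes became 5 under median centring, and the 771 of all genes became 464 under centring, 1243 with no filter and missing values set to 5 reads, and 2336 by adjusted p alone. Late against 0 min, 13 genes became 8 under centring and 6 under quantile normalization, and 1144 of all genes became 746 and 716. Early against 0 min, 7 of all genes became 2 under quantile normalization, 49 without the 105, 120 and 135 min libraries and 2 with every second library. For 105 to 135 against 60 to 90 min, 7 of all genes became 4 under centring, 0 under quantile normalization, 1 with no filter, 4 on log2(RPM + 10), 11 by adjusted p alone and 0 without the 5 libraries of low ADA2, a setting chosen after seeing the data. For 195 to 225 against 105 to 135 min, 992 of all genes became 2321 by adjusted p alone. Along the course, 15 genes became 24 and 1881 of all genes became 3107 by adjusted p alone, and 1204 with a value required in all 25 libraries. Leaving out 1 library gave 8 to 10 genes (693 to 801 of all) late against early, 12 to 14 (1038 to 1181) late against 0 min, 0 (5 to 9) early, 0 (0 to 10) into the low window, 14 to 15 (886 to 1163) out of it and 13 to 16 (1719 to 1934) along the course. The late libraries, at 0.147 to 0.781 M reads, are among the shallowest, and SKN7, OYE3 and CTA1 were under 10 reads in 3 or more of the 6.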
